A study of Mus musculus with 6 samples.

Results

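The autophagy machinery genes are 36 genes for the proteins that start, build and load the autophagosome, chosen by gene symbol. All 36 were found among the 25344 genes of the deposited table, 1 row each, and all 36 passed the level of 1 FPKM (mean over the 6 libraries) that 10755 genes of the table reached and that was set for testing. They comprise 16 genes of initiation, 15 of conjugation and 5 cargo receptors. RNA of the gastrocnemius, a calf muscle made mostly of fast fibres in mice, was sequenced in 3 libraries from HSA-NRTN mice and 3 from wild-type littermates (WT). HSA-NRTN mice carry an NRTN transgene under the human alpha-skeletal actin promoter, which restricts expression to skeletal muscle fibres. Neurturin, its product, is a secreted ligand of the GDNF family. The labels give no age, sex, strain or number of animals per library. The spread behind each p-value is that between libraries, which may be technical.

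Autophagy delivers parts of the cytoplasm to the lysosome. The ULK kinase complex switches it on, a class III PI3-kinase complex marks the membrane from which the phagophore grows, and ATG2, ATG9 and WIPI proteins supply lipid and recruit the later factors. A pair of ubiquitin-like systems then attaches LC3 and GABARAP proteins, together called ATG8 proteins, to the membrane, where cargo receptors such as p62 bind them. In skeletal muscle the pathway clears damaged mitochondria and protein aggregates, and both its excess and its loss are known to cause wasting. Transcript levels do not measure the flux through the pathway.

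Reads counted in genes came to 28580513 to 50291845 per HSA-NRTN library and 27418154 to 35243260 per WT library. A member had between 255 reads (Atg7) and 18597 reads (Sqstm1) in a library. The transgene product's gene Nrtn was at 178, 201 and 169 FPKM in HSA-NRTN and 3.21, 1.70 and 4.33 FPKM in WT, high in every library labelled as transgenic. The muscle fibre markers Acta1, Ckm, Ttn, Mb, Myh4 and Myh1 summed to 22601 to 25437 FPKM in HSA-NRTN and 32767 to 36519 FPKM in WT. Of these 6, 2 were called higher (Myh1 and Mb) and 3 lower (Myh4, Ckm and Acta1) with FPKM, and Ttn was not called. Myh1 averaged 1829 FPKM in HSA-NRTN and 621 FPKM in WT, and Myh4 2635 FPKM in HSA-NRTN and 8761 FPKM in WT. The lower sum thus hides changes in both directions. In bulk muscle, fewer cells of a type and less RNA per cell cannot be told apart.

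Values are FPKM (reads per kilobase of exon, relative to library size), which the authors scaled to each library's total. A second scaling uses the authors' size factors, worked out from their table, which correct for composition; relative to WT it moves the HSA-NRTN libraries down by 0.299 (log2). Each gene was therefore tested under both scalings with limma on log2(FPKM + 1), over all 10755 genes, and called at a Benjamini-Hochberg adjusted p under 0.05. Changes are HSA-NRTN minus WT on that log2 scale, which understates the change of low genes. "Rose" and "fell" are used for genes called under both scalings, and a gene that was not called is not thereby shown to be equal in the groups.

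Changes among the autophagy genes were modest, and 8 of the 36 held under both scalings. Sqstm1, Ulk2, Ulk1, Atg9a, Atg4a and Atg12 fell, and Uvrag and Atg10 rose. Of all tested genes 11.7% fell and 21.1% rose under both scalings. The mean FPKM in HSA-NRTN over that in WT was 0.624 for Sqstm1, 0.698 for Ulk2, 0.775 for Atg12, 0.783 for Atg9a, 0.788 for Atg4a, 0.842 for Ulk1, 1.51 for Atg10 and 1.53 for Uvrag. After the second scaling these ratios were lower, at 0.507 for Sqstm1 and 1.24 for Uvrag. With FPKM as deposited, 7 members were called higher (19.4%, beside 41.6% of all tested genes) and 6 lower (16.7%, beside 11.7%). With the size factors 2 were called higher (5.56%, beside 21.1%) and 16 lower (44.4%, beside 29.9%). The authors' deposited table, at the same threshold, has 1 member higher (2.78%) and 16 lower (44.4%), beside 18.0% and 17.8% of its genes with an adjusted p. Those are 18953 genes, many of them below the level of 1 FPKM that all members passed, so these shares are not over like sets. The members' median log2 change was 0.040, against 0.18 for all tested genes, and -0.19 against -0.054 with the size factors. No test of the list as a whole was made. By class, 3 of 16 initiation genes were higher and 3 lower with FPKM (1 and 8 with the size factors), with a median change of -0.010 (-0.25). Of the 15 conjugation genes 4 were higher and 2 lower (1 and 4), with a median of 0.13 (-0.15). Of the 5 cargo receptors 0 were higher and 1 lower (0 and 4), with a median of 0.014 (-0.27).

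Which genes were called depended on the scaling for 15 members. Pik3r4, Wipi1, Atg5, Gabarap and Gabarapl1 were higher with FPKM and not called with the size factors. Atg13, Atg101, Rb1cc1, Becn1, Pik3c3, Atg4d, Gabarapl2, Optn, Calcoco1 and Tax1bp1 were lower with the size factors and not called with FPKM. The other 13 were called under neither: Atg14, Ambra1, Atg2a, Atg2b, Wipi2, Atg3, Atg4b, Atg4c, Atg7, Atg16l1, Map1lc3a, Map1lc3b and Nbr1. In FPKM as deposited all HSA-NRTN libraries lay above all WT libraries for 12 members (this held for 47.0% of all tested genes) and below them for 7 (15.2%). After scaling by the size factors the counts were 2 (24.6%) and 21 (35.4%).

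**Figure D1:**
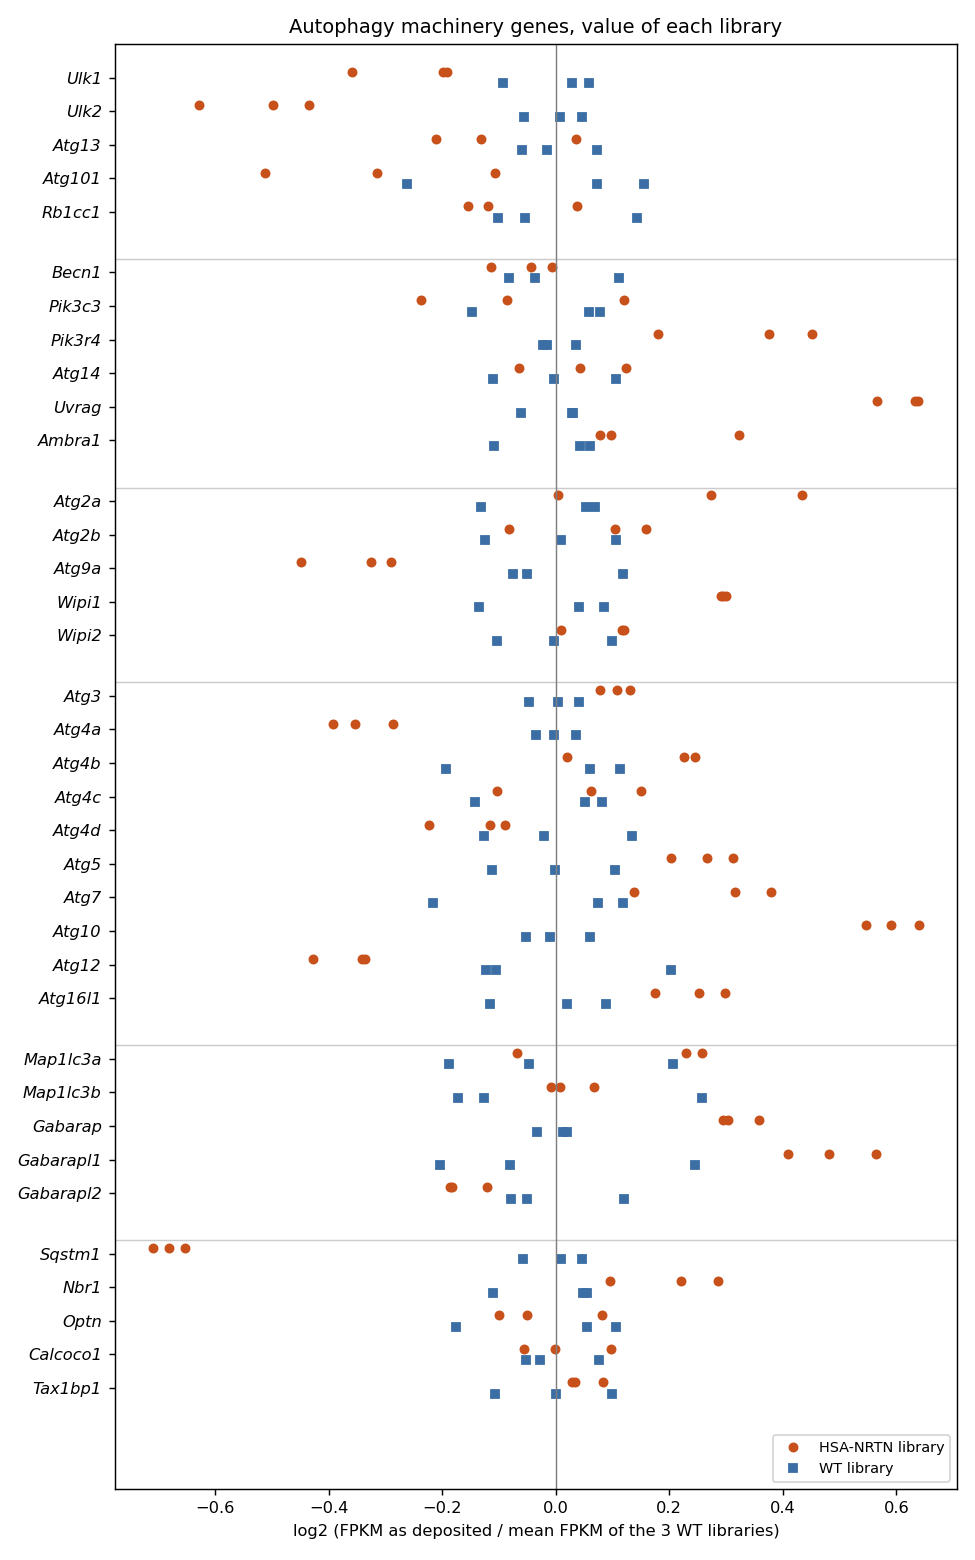
FPKM of the 36 autophagy genes in each library, as log2 of the ratio to the mean of the 3 WT libraries (circles HSA-NRTN, squares WT; grey lines part the ULK complex, PI3-kinase, phagophore growth, conjugation enzymes, ATG8 proteins and cargo receptors, from top to bottom). Sqstm1 and Ulk2 lie farthest to the left and Uvrag and Atg10 farthest to the right; for 17 genes the groups overlap.

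**Figure D2:**
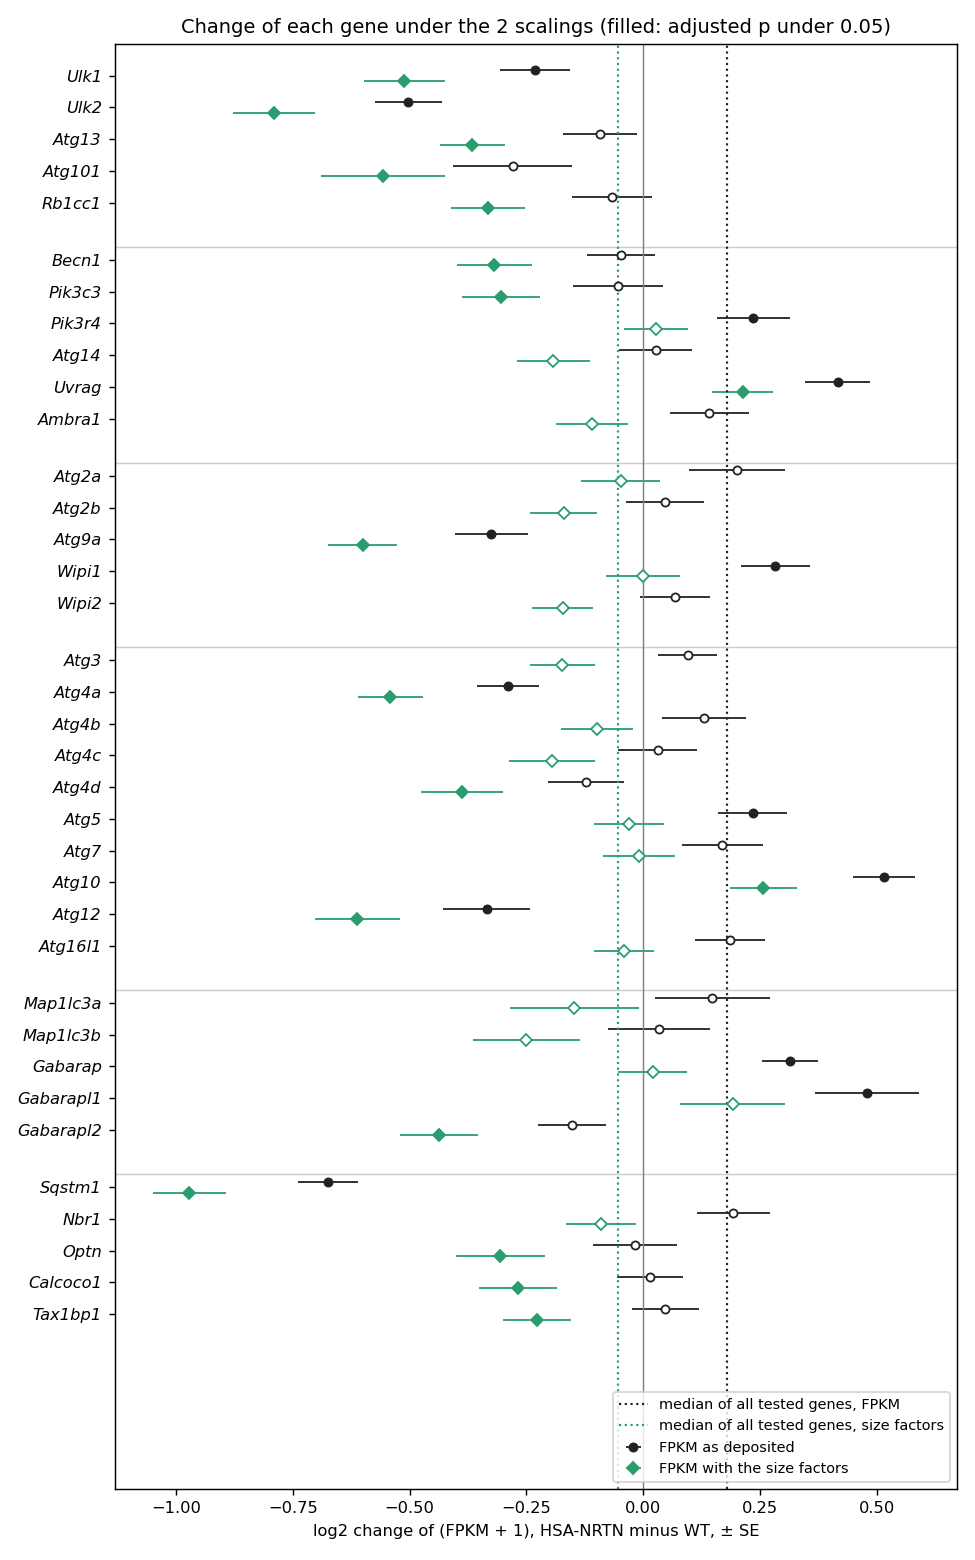
Log2 change of FPKM + 1, HSA-NRTN minus WT, with its SE, for each gene under FPKM as deposited (black circles) and with the size factors (green diamonds); filled symbols have an adjusted p under 0.05 and dotted lines mark the medians of all tested genes (0.18 and -0.054). Each pair of symbols is offset by a similar amount, and 6 genes are filled to the left of 0 and 2 to the right under both.

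Of the 5 genes of the ULK complex, the kinase assembly that receives the signals of mTORC1 and AMP-activated kinase, both kinase genes fell and the other 3 depended on the scaling. Ulk2 (ENSMUSG00000004798; chromosome 11, 61775649 to 61855073, positions here and below on GRCm38 as in the table) was measured at 25.5, 22.3 and 24.4 FPKM in the HSA-NRTN libraries, against 33.1, 34.6 and 35.6 FPKM in the WT libraries. Every HSA-NRTN library was below every WT library. The log2 change was -0.50 ± 0.072 (SE; limma, adjusted p = 7.75e-04), and -0.79 ± 0.088 with the size factors (limma, adjusted p = 2.44e-04). Its call held in each fit that left out 1 library. Ulk1 (ENSMUSG00000029512; chromosome 5, 110784488 to 110810097), the better studied paralogue, was at 13.9, 13.8 and 12.3 FPKM in the HSA-NRTN libraries, against 16.2, 16.5 and 14.8 FPKM in the WT libraries. These groups did not overlap either, but the gap was narrow. The change of Ulk1 was -0.23 ± 0.075 (SE; limma, adjusted p = 0.0306), and -0.51 ± 0.087 with the size factors (limma, adjusted p = 0.00196). With FPKM its call was lost without HSA-NRTN 2 or 3 or WT 1 or 2 (limma, adjusted p up to 0.117; log2 change -0.28 to -0.18 over the 6 such fits), while with the size factors it held in all 6.

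Rb1cc1, which encodes the scaffold FIP200, had a mean of 7.83 ± 0.567 FPKM in HSA-NRTN and 8.26 ± 0.757 FPKM in WT (SD, n = 3 each, as for all means below). Atg13, the adaptor that binds FIP200 and the kinases, averaged 10.7 ± 0.943 FPKM in HSA-NRTN and 11.4 ± 0.535 FPKM in WT, and its partner Atg101 12.2 ± 1.72 FPKM in HSA-NRTN and 15.1 ± 2.22 FPKM in WT. None of the 3 was called with FPKM (limma, adjusted p = 0.529, 0.354 and 0.0951). All 3 were called lower with the size factors, with changes of -0.33, -0.37 and -0.56 (limma, adjusted p = 0.00895, 0.00325 and 0.00913). Among the 6 groups drawn apart in the plot of all members, the ULK complex was the only one in which every gene had a negative change under both scalings. With the size factors alone, every gene of phagophore growth and every cargo receptor had a negative change too. With FPKM the change of Rb1cc1 was near 0, at -0.067, and came to -0.0012 in 1 of the fits that left out a library.

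In the PI3-kinase group, Uvrag rose and the catalytic core showed no call that held under both scalings. Uvrag (ENSMUSG00000035354; chromosome 7, 98885021 to 99141141) encodes the subunit that replaces ATG14 in the complex acting on late endosomes. It was at 2.54, 2.67 and 2.68 FPKM in the HSA-NRTN libraries, against 1.76, 1.75 and 1.65 FPKM in the WT libraries. The HSA-NRTN libraries were all above the WT libraries, at a low level. The change was 0.42 ± 0.069 (SE; limma, adjusted p = 0.00157), and 0.21 ± 0.065 with the size factors (limma, adjusted p = 0.0264). With the size factors the call was kept only without WT 1 among the fits that left out 1 library (limma, adjusted p = 0.0369 to 0.0812 over the 6), and quantile normalization ended it (limma, adjusted p = 0.0957). The authors' deposited table gives a log2 change of 0.31 (adjusted p = 0.0245).

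Becn1 (Beclin 1), the scaffold of both PI3-kinase complexes, averaged 10.03 ± 0.376 FPKM in HSA-NRTN and 10.4 ± 0.743 FPKM in WT, and Pik3c3 (VPS34), the lipid kinase itself, 5.22 ± 0.654 FPKM in HSA-NRTN and 5.44 ± 0.460 FPKM in WT. Their FPKM overlapped between the groups (limma, adjusted p = 0.607 and 0.660), and with the size factors they were called lower, with changes of -0.32 and -0.31 (limma, adjusted p = 0.0115 and 0.0164). Pik3r4 (VPS15), the regulatory subunit of the kinase, went the other way. It was at 2.31, 2.65 and 2.79 FPKM in the HSA-NRTN libraries, against 2.01, 2.09 and 2.02 FPKM in the WT libraries, a change of 0.23 ± 0.078 (SE; limma, adjusted p = 0.0339) that was not called with the size factors (0.027; adjusted p = 0.763). Its FPKM call was kept in 1 of the 6 fits that left out a library, the one without HSA-NRTN 1. Atg14, which directs the complex to the phagophore, averaged 2.83 ± 0.185 FPKM in HSA-NRTN and 2.76 ± 0.207 FPKM in WT. Ambra1, a regulator of Beclin 1 and of ULK1, averaged 5.53 ± 0.535 FPKM in HSA-NRTN and 4.92 ± 0.309 FPKM in WT. Neither was called under either scaling.

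Among the 5 genes of phagophore growth, Atg9a fell and Wipi1 was higher under 1 scaling. Atg9a (ENSMUSG00000033124; chromosome 1, 75180860 to 75192196), the membrane protein of the vesicles that seed the phagophore, was at 10.1, 11.0 and 11.2 FPKM in the HSA-NRTN libraries, against 14.9, 13.2 and 13.0 FPKM in the WT libraries. The groups were separate, with WT 1 the highest library. Its change was -0.33 ± 0.078 (SE; limma, adjusted p = 0.00859), and -0.60 ± 0.073 with the size factors (limma, adjusted p = 3.88e-04). With FPKM the call held whichever library was left out. Wipi1, a reader of the lipid that VPS34 makes, was at 20.3, 20.2 and 20.2 FPKM in the HSA-NRTN libraries, against 15.002, 16.9 and 17.5 FPKM in the WT libraries. The HSA-NRTN values lay within 0.2 FPKM of each other and above WT, a change of 0.28 ± 0.073 (SE; limma, adjusted p = 0.0124), whereas with the size factors it was not called (adjusted p = 0.996). The lipid transfer proteins Atg2a (5.42 ± 0.797 FPKM in HSA-NRTN and 4.57 ± 0.347 FPKM in WT) and Atg2b (2.70 ± 0.232 FPKM in HSA-NRTN and 2.58 ± 0.206 FPKM in WT) and the second reader Wipi2 (4.28 ± 0.185 FPKM in HSA-NRTN and 4.04 ± 0.283 FPKM in WT) were called under neither scaling.

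The conjugation enzymes split within 1 reaction chain: Atg10 rose and Atg12 fell. ATG12 is a ubiquitin-like protein that ATG7 activates and ATG10 passes on to ATG5, and the product, bound to ATG16L1, sets the place where LC3 is attached. Atg10 (ENSMUSG00000021619; chromosome 13, 90935356 to 91223968) was at 8.47, 7.94 and 8.19 FPKM in the HSA-NRTN libraries, against 5.67, 5.24 and 5.40 FPKM in the WT libraries, with no overlap. The change was 0.52 ± 0.066 (SE; limma, adjusted p = 4.41e-04), the largest increase among the 36 members on this scale, and 0.26 ± 0.071 with the size factors (limma, adjusted p = 0.0180). With the size factors the call was kept in 4 of the 6 fits that left out 1 library (limma, adjusted p = 0.0222 to 0.0601), and in the authors' deposited table it is absent, with a log2 change of 0.29 (adjusted p = 0.0879). Atg12 (ENSMUSG00000032905; chromosome 18, 46730144 to 46741580) was at 11.0, 11.7 and 11.7 FPKM in the HSA-NRTN libraries, against 17.0, 13.6 and 13.7 FPKM in the WT libraries. WT 1 was well above the other WT libraries, and all 3 were above HSA-NRTN. Its change was -0.34 ± 0.093 (SE; limma, adjusted p = 0.0164), and -0.61 ± 0.091 with the size factors (limma, adjusted p = 0.00102). Without WT 1 the change was -0.24 (limma, adjusted p = 0.0229).

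Atg5, the acceptor of ATG12, was at 8.76, 8.38 and 9.04 FPKM in the HSA-NRTN libraries, against 7.83, 6.74 and 7.27 FPKM in the WT libraries. This was a change of 0.23 ± 0.074 (SE; limma, adjusted p = 0.0286), but -0.031 ± 0.075 with the size factors (limma, adjusted p = 0.746). Its FPKM call was kept in 2 of the 6 fits that left out 1 library. Atg16l1 (3.45 ± 0.149 FPKM in HSA-NRTN and 2.91 ± 0.207 FPKM in WT), the activating enzyme gene Atg7 (1.64 ± 0.140 FPKM in HSA-NRTN and 1.35 ± 0.163 FPKM in WT) and Atg3 (8.98 ± 0.163 FPKM in HSA-NRTN and 8.35 ± 0.254 FPKM in WT), whose product transfers LC3 to the lipid, were called under neither scaling. For these 3 genes every HSA-NRTN library was above every WT library in FPKM. For Atg3 the order turned round with the size factors, where all HSA-NRTN libraries were below all WT libraries.

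ATG4 proteases cut new ATG8 proteins to expose the glycine that is joined to the lipid, and later release them. Atg4a (ENSMUSG00000079418; chromosome X, 140956907 to 141164270) fell. It was at 4.97, 4.62 and 4.75 FPKM in the HSA-NRTN libraries, against 5.92, 6.05 and 6.22 FPKM in the WT libraries, and the libraries of a group lay close together. Its change was -0.29 ± 0.066 (SE; limma, adjusted p = 0.00676), and -0.54 ± 0.070 with the size factors (limma, adjusted p = 5.28e-04). Atg4d, the most abundant of the 4 in FPKM, averaged 7.32 ± 0.356 FPKM in HSA-NRTN and 8.07 ± 0.740 FPKM in WT and was called lower with the size factors only (-0.39; limma, adjusted p = 0.00745). Atg4b, held to be the main processing enzyme, averaged 3.49 ± 0.296 FPKM in HSA-NRTN and 3.11 ± 0.342 FPKM in WT, and Atg4c 3.20 ± 0.284 FPKM in HSA-NRTN and 3.11 ± 0.256 FPKM in WT. Neither was called. Atg4a thus made up 25.4 ± 0.561% in HSA-NRTN and 29.8 ± 1.40% in WT of the summed FPKM of the 4 genes, a share that does not depend on the scaling of a library.

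Among the 5 ATG8 genes, Map1lc3a, Gabarap and Gabarapl1 had the highest mean FPKM in both groups, in that order, and no call held under both scalings. The order, and the shares of the summed FPKM given below, depend on the exon lengths used. These were 1180 bases for Map1lc3a and 7516 for Map1lc3b. In every library Map1lc3b had more reads than Map1lc3a (3940 to 7118 against 3436 to 6957). Map1lc3a was at 119, 117 and 95.2 FPKM in the HSA-NRTN libraries, against 115, 96.6 and 87.6 FPKM in the WT libraries. The groups overlapped (limma, adjusted p = 0.337, and 0.395 with the size factors). Map1lc3b, from which the LC3B marker of autophagosomes is made, was at 19.6, 18.8 and 18.6 FPKM in the HSA-NRTN libraries, against 22.4, 16.6 and 17.2 FPKM in the WT libraries. WT 1 was the highest library of all and the groups overlapped (limma, adjusted p = 0.814 with FPKM and 0.1004 after rescaling). Together the 5 genes summed to 243 ± 13.9 FPKM in HSA-NRTN and 213 ± 16.0 FPKM in WT.

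Gabarap, the founding member of the second ATG8 branch, was at 65.8, 63.4 and 63.0 FPKM in the HSA-NRTN libraries, against 51.8, 50.2 and 52.1 FPKM in the WT libraries. Replicates agreed closely and the groups were apart. Its change was 0.31 ± 0.061 (SE; limma, adjusted p = 0.00322), but 0.020 ± 0.074 with the size factors (limma, adjusted p = 0.835). Gabarapl1 was at 31.0, 29.5 and 32.8 FPKM in the HSA-NRTN libraries, against 19.3, 20.99 and 26.3 FPKM in the WT libraries. WT 3 came nearest to the HSA-NRTN libraries. Its change was 0.48 ± 0.11 (SE; limma, adjusted p = 0.00758), but 0.19 ± 0.11 with the size factors (limma, adjusted p = 0.185); without WT 3 it was 0.60 with FPKM. Gabarapl2 (GATE-16) was at 18.9, 18.1 and 18.0 FPKM in the HSA-NRTN libraries, against 22.3, 19.8 and 19.4 FPKM in the WT libraries. All HSA-NRTN libraries were below WT, a change of -0.15 ± 0.073 (SE; limma, adjusted p = 0.109) that was called only with the size factors (-0.44; limma, adjusted p = 0.00323). As a share of the summed ATG8 FPKM, Gabarapl2 held 7.55 ± 0.324% in HSA-NRTN and 9.65 ± 0.0562% in WT, Gabarapl1 12.8 ± 1.37% in HSA-NRTN and 10.5 ± 2.34% in WT and Map1lc3a 45.4 ± 3.10% in HSA-NRTN and 46.8 ± 3.34% in WT.

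**Figure D3:**
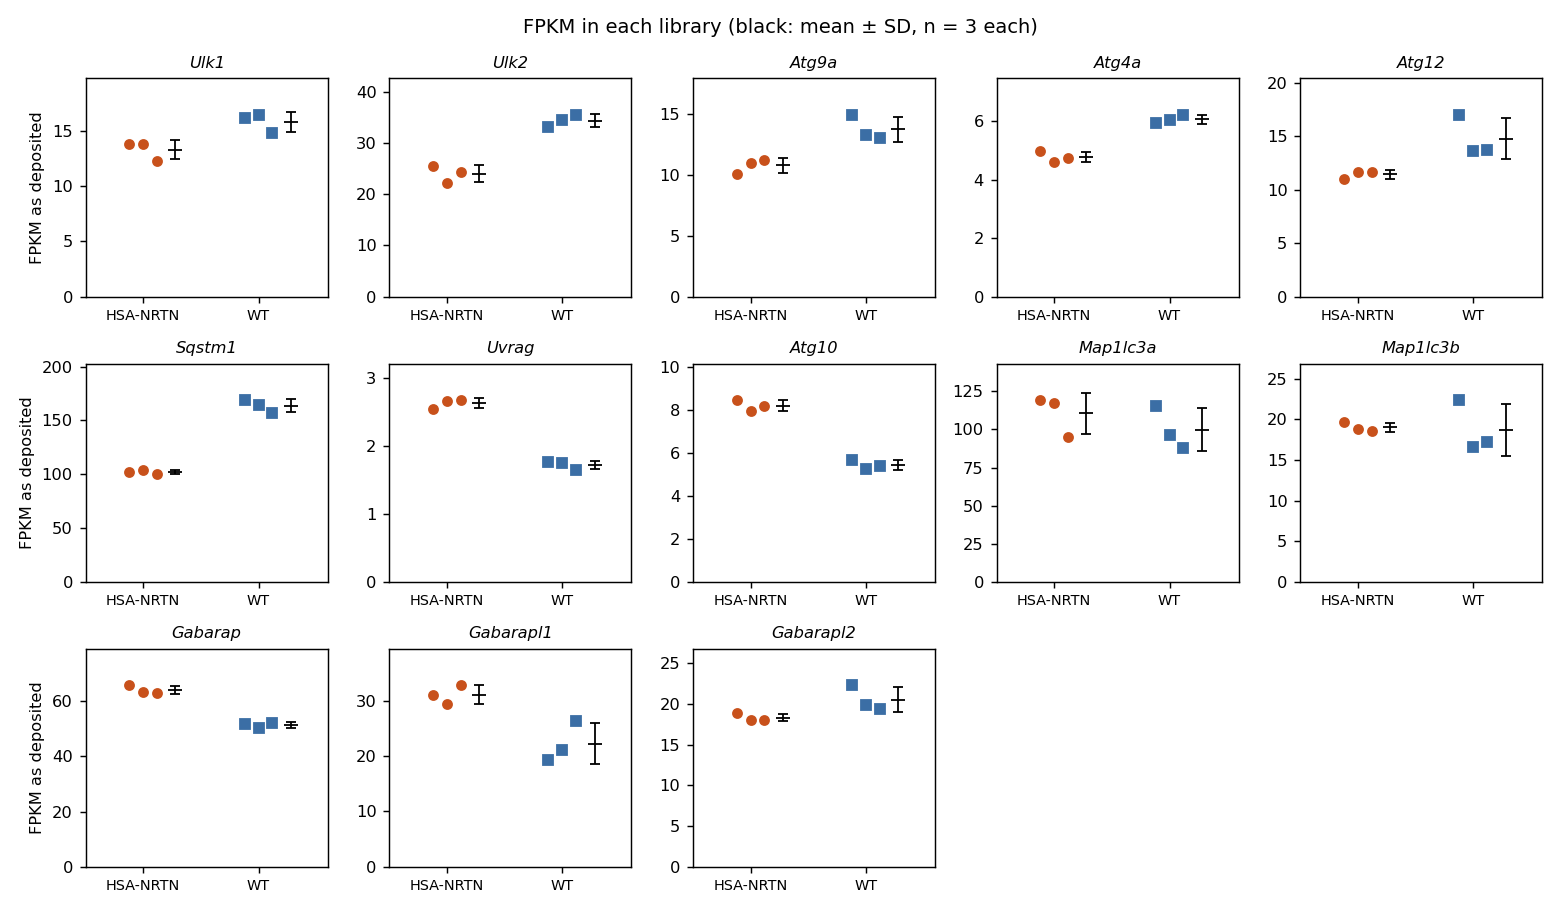
FPKM as deposited in each library for the 8 genes called under both scalings and the 5 ATG8 genes (circles HSA-NRTN, squares WT, black bars mean ± SD, n = 3 each; axes start at 0). Sqstm1 sits at 100.1 to 104 FPKM in HSA-NRTN and 157 to 169 FPKM in WT, while the groups overlap for Map1lc3a and Map1lc3b.

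Sqstm1 had the largest change of the 36 members under both scalings, and none of the other 4 cargo receptors was called under both. Sqstm1 (ENSMUSG00000015837; chromosome 11, 50199366 to 50210827) encodes p62, which binds ubiquitin-tagged cargo and LC3 and is itself degraded with the cargo. In WT Sqstm1 had the highest mean FPKM of the members, while in HSA-NRTN the mean of Map1lc3a was above it (111 ± 13.4 FPKM). In the library HSA-NRTN 3 the order was the other way, with Map1lc3a at 95.2 FPKM and Sqstm1 at 100.1 FPKM. Sqstm1 was at 102, 104 and 100.1 FPKM in the HSA-NRTN libraries, against 169, 165 and 157 FPKM in the WT libraries. The lowest WT library was far above the highest HSA-NRTN library, and within a group the libraries differed little. The change was -0.67 ± 0.064 (SE; limma, adjusted p = 9.40e-05), and -0.97 ± 0.078 with the size factors (limma, adjusted p = 4.80e-05). Over the fits that left out 1 library it ran from -0.70 to -0.65 with FPKM, with the call kept in all. In the authors' deposited table it is -0.98 (adjusted p = 1.06e-28).

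Nbr1, a receptor related to p62, was at 18.4, 20.1 and 20.98 FPKM in the HSA-NRTN libraries, against 15.9, 17.8 and 17.9 FPKM in the WT libraries. The groups did not overlap, but neither scaling gave a call (limma, adjusted p = 0.0672 and 0.336). Optn (optineurin, 28.2 ± 1.86 FPKM in HSA-NRTN and 28.7 ± 2.89 FPKM in WT), a receptor for damaged mitochondria, Tax1bp1 (11.5 ± 0.239 FPKM in HSA-NRTN and 11.1 ± 0.790 FPKM in WT), a receptor for ubiquitin-tagged cargo, and Calcoco1 (16.6 ± 0.895 FPKM in HSA-NRTN and 16.5 ± 0.784 FPKM in WT), a receptor for parts of the endoplasmic reticulum and Golgi, overlapped between the groups in FPKM. With the size factors these 3 were called lower, with changes of -0.31, -0.23 and -0.27 (limma, adjusted p = 0.0281, 0.0314 and 0.0282). Those calls were kept in 3, 2 and 2 of the 6 fits that left out 1 library. Sqstm1 accounted for 57.3 ± 1.22% in HSA-NRTN and 69.0 ± 1.89% in WT of the summed FPKM of the 5 receptors, and Nbr1 for 11.1 ± 0.678% in HSA-NRTN and 7.26 ± 0.501% in WT. The shares of Optn (15.8% in HSA-NRTN and 12.1% in WT), Calcoco1 (9.33% and 6.94%) and Tax1bp1 (6.43% and 4.67%) were higher in HSA-NRTN too. A lower share of Sqstm1 leaves more of the sum to the others.

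Ratios of FPKM between related members within a library are free of the scaling, and 6 of 12 ratios did not overlap between the groups. Groups without overlap were also common for single genes in FPKM (47.0% of all tested genes above WT and 15.2% below). The share among other pairs of genes was not worked out, and several of the ratios share a gene. The ratio of Sqstm1 to Nbr1 was 5.55, 5.19 and 4.77 in HSA-NRTN, against 10.6, 9.26 and 8.79 in WT, a difference of -0.88 on the log2 scale. For Gabarapl2 over Gabarap the ratio was 0.287, 0.285 and 0.286 in HSA-NRTN, against 0.431, 0.395 and 0.373 in WT (log2 difference -0.48), and for Gabarapl1 over Gabarapl2 it was 1.64, 1.63 and 1.82 in HSA-NRTN, against 0.863, 1.06 and 1.35 in WT (0.66). Atg4a over Atg4b was lower in HSA-NRTN as well (log2 difference -0.51), and Ulk1 over Ulk2 (0.27) and Wipi1 over Wipi2 (0.21) were higher. Each of these 6 had a two-sided p of 0.1 in the exact permutation test, the smallest that 3 against 3 libraries allow, and 0.200 after adjustment over the 12 ratios, so none passes 0.05. The groups overlapped for Atg2a over Atg2b, Atg4c and Atg4d over Atg4b, Map1lc3a over Map1lc3b, Gabarapl1 over Gabarap and Optn over Tax1bp1. The last of these differed least, by -0.070.

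**Figure D4:**
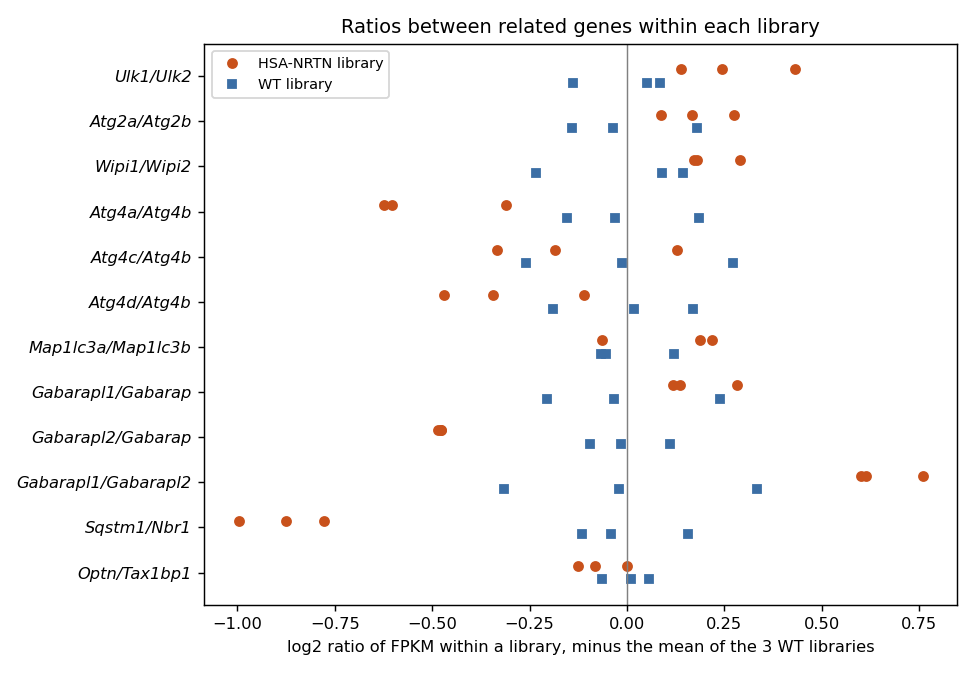
Log2 ratio of the FPKM of 2 related genes within each library, minus the mean of the 3 WT libraries (circles HSA-NRTN, squares WT). The groups lie apart for 6 ratios, with differences from -0.88 (Sqstm1 over Nbr1) to 0.66 (Gabarapl1 over Gabarapl2).

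TFEB and TFE3, transcription factors of lysosome and autophagy genes, bind the CLEAR element, whose core is CACGTG, and FoxO factors bind the forkhead motif GTAAACA, which was searched on both strands. Promoter windows of RefSeq (GRCm38.p6), 300 bases long and ending just past a start of transcription in RefSeq, were at hand for 30 of the 36 members; Atg12, Atg16l1, Becn1, Map1lc3a, Pik3c3 and Rb1cc1 had none in the table. The CLEAR core, which reads the same on both strands, was found in any window of 4 of the 30 members (13.3%), beside 8.09% of the 27025 genes with a window, counted in the same way, 1 gene at a time (4 members have 2 windows). The 4 were Atg3, Atg5, Atg7 and Atg14, and none of them is among the 8 genes called under both scalings. For Atg7 and Atg14 the RefSeq start lies 27999 and 2215 bases inside the gene as the deposited table places it, and for Atg4b and Wipi2 it also lies over 1000 bases inside, so these windows are not at the gene's outermost start. The forkhead motif, as the exact letters GTAAACA on either strand, was found in 0 of the 30, beside 4.05% of the 27025 genes with a window. Variants of the motif were not searched. A match is a run of letters, not a shown binding site. Below, a window with 2 CLEAR cores and a window with 1 (in capitals) are shown with those of Sqstm1 and Ulk2, the members with the largest decreases, in which neither motif occurs.
Atg3 promoter (chr16:45158579-45158878, plus strand): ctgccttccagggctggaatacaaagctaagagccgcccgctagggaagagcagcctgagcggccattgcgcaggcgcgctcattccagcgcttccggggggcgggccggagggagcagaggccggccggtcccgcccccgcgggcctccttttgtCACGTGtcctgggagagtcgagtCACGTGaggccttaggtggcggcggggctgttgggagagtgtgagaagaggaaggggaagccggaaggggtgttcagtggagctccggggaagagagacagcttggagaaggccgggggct
Atg5 promoter (chr10:44268089-44268388, plus strand): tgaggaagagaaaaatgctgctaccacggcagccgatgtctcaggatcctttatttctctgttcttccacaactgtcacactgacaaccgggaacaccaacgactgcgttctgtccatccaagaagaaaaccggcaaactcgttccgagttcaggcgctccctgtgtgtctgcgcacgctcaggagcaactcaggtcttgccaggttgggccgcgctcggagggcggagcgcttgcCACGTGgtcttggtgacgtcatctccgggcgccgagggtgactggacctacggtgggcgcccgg
Sqstm1 promoter (chr11:50210771-50211070, minus strand): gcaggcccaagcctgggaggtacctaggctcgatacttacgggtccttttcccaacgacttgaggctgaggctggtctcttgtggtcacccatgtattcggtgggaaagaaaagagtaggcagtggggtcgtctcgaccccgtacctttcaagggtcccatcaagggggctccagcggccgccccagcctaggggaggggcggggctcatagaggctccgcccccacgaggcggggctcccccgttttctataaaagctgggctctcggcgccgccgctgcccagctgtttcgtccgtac
Ulk2 promoter (chr11:61855043-61855342, minus strand): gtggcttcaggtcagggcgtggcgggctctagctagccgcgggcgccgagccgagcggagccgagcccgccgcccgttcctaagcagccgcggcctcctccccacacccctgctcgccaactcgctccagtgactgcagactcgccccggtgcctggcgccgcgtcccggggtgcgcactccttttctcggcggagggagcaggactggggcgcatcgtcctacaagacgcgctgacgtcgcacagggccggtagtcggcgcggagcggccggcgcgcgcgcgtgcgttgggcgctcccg

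Among 10 tested transcriptional regulators of autophagy genes, out of 11 listed, 3 rose (30%, beside 21.1% of all tested genes called higher under both scalings) and 2 fell (20%, beside 11.7%). Tfeb fell. It was at 7.76, 7.26 and 6.56 FPKM in the HSA-NRTN libraries, against 13.2, 12.1 and 11.9 FPKM in the WT libraries, and the groups were wide apart. The change was -0.71 ± 0.080 (SE; limma, adjusted p = 2.17e-04), and -0.98 ± 0.090 with the size factors (limma, adjusted p = 9.05e-05). Its relative Tfe3 rose, averaging 2.04 ± 0.159 FPKM in HSA-NRTN and 1.203 ± 0.0673 FPKM in WT, and so did Zkscan3, described as a repressor of autophagy genes, averaging 5.54 ± 0.599 FPKM in HSA-NRTN and 3.48 ± 0.399 FPKM in WT. Their changes were 0.46 and 0.54 (limma, adjusted p = 0.00158 and 0.00226). The size-factor call of Zkscan3 was kept in 3 of the 6 fits that left out 1 library, and lost without HSA-NRTN 2 or 3 or WT 2 (limma, adjusted p up to 0.0620).

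Among 24 genes of mTORC1 and its inputs, the kinase complex that holds ULK1 in check when nutrients are plentiful, 5 were called higher and 3 lower with FPKM, and 2 higher and 9 lower with the size factors. These are 20.8% and 12.5% with FPKM, beside 41.6% and 11.7% of all tested genes, and 8.33% and 37.5% with the size factors, beside 21.1% and 29.9%. Rragd, a Rag GTPase that brings mTORC1 to the lysosome, fell, with 45.0, 41.9 and 43.9 FPKM in the HSA-NRTN libraries, against 76.1, 75.8 and 75.0 FPKM in the WT libraries. Its change was -0.78 ± 0.062 (SE; limma, adjusted p = 3.72e-05), and -1.08 ± 0.079 with the size factors (limma, adjusted p = 3.12e-05). Ddit4 (REDD1), a stress-induced inhibitor of mTORC1, rose, averaging 7.82 ± 2.14 FPKM in HSA-NRTN and 3.85 ± 0.311 FPKM in WT (limma, adjusted p = 0.00292). Lamtor3, a subunit of the lysosomal anchor of the Rag proteins, averaged 5.15 ± 0.0725 FPKM in HSA-NRTN and 3.69 ± 0.180 FPKM in WT; it was called higher with FPKM (limma, adjusted p = 0.00183) but not with the size factors (0.0991). Mtor averaged 6.20 ± 0.499 FPKM in HSA-NRTN and 5.51 ± 0.622 FPKM in WT and was called under neither scaling.

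Of 13 genes for the fusion of autophagosomes with lysosomes, 1 was called higher and 2 lower with FPKM (7.69% and 15.4%), and 1 and 6 with the size factors (7.69% and 46.2%), to be read against the same shares of all tested genes. Vamp8, the lysosomal SNARE of the fusion complex, rose, averaging 13.3 ± 0.606 FPKM in HSA-NRTN and 6.79 ± 0.372 FPKM in WT (0.88; limma, adjusted p = 4.08e-05). Stx17, its partner on the autophagosome, fell, averaging 6.63 ± 0.298 FPKM in HSA-NRTN and 8.32 ± 0.774 FPKM in WT (-0.29; limma, adjusted p = 0.0186). Vps33a, a subunit of the HOPS tether, fell too, averaging 10.8 ± 0.371 FPKM in HSA-NRTN and 12.4 ± 0.107 FPKM in WT (-0.19; limma, adjusted p = 0.0334). Both FPKM calls depended on single libraries: that of Stx17 was lost without HSA-NRTN 2, WT 2 or WT 3 (limma, adjusted p up to 0.0719), and that of Vps33a without any 1 of the 6 (limma, adjusted p = 0.0532 to 0.0956). Their size-factor calls held in all 6 fits. Of 10 tested genes in the list of other core autophagy genes (13 listed), 2 were higher and 1 lower with FPKM (20% and 10%), and 0 and 4 with the size factors (0% and 40%). The shares of all tested genes were 41.6% and 11.7% with FPKM, and 21.1% and 29.9% with the size factors. Rubcn (Rubicon), an inhibitor of the UVRAG form of the PI3-kinase complex, fell, averaging 5.29 ± 0.459 FPKM in HSA-NRTN and 6.95 ± 0.369 FPKM in WT (limma, adjusted p = 0.00765). Wdr45b and Sh3glb1 were higher with FPKM (limma, adjusted p = 0.0233 and 0.0246) but not with the size factors (0.775 and 0.452), and the FPKM calls were kept in 2 and 3 of the 6 fits that left out 1 library. Of the receptors of other selective autophagy (17 listed), 14 were tested. With FPKM 5 were higher and 1 lower (35.7% and 7.14%), and with the size factors 2 and 7 (14.3% and 50%). The shares called higher were below those of all tested genes under both scalings. The share called lower was below that of all tested genes with FPKM (11.7%) and above it with the size factors (29.9%). Under both scalings 2 of the list were called higher and 1 lower. Phb2, an inner mitochondrial membrane protein that LC3 binds, rose, averaging 34.8 ± 0.588 FPKM in HSA-NRTN and 24.3 ± 1.24 FPKM in WT, and so did Rtn3, a receptor for tubules of the endoplasmic reticulum, averaging 17.2 ± 1.27 FPKM in HSA-NRTN and 11.5 ± 0.485 FPKM in WT (limma, adjusted p = 4.62e-04 and 6.00e-04). Their size-factor calls were kept in 1 and 3 of the 6 fits that left out 1 library, that of Phb2 only without WT 1 and that of Rtn3 without HSA-NRTN 1 or 2 or WT 1. Ccpg1, another receptor of that organelle, was higher with FPKM (adjusted p = 0.0107) and not with the size factors (0.0886).

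Markers of several other cell types were higher in HSA-NRTN with FPKM. For every type but macrophages, fewer were called higher under both scalings. All 6 macrophage markers were called higher under both scalings, and their summed level was 58.1 to 66.7 FPKM in HSA-NRTN and 14.9 to 18.2 FPKM in WT. The 5 fibroblast markers, 4 of them higher under both scalings, summed to 373 to 448 FPKM in HSA-NRTN and 213 to 246 FPKM in WT, and the 5 endothelial markers, 2 of them higher under both, to 92.3 to 114 FPKM in HSA-NRTN and 67.7 to 74.7 FPKM in WT. Summed levels were 29.8 to 39.6 FPKM in HSA-NRTN and 20.6 to 23.9 FPKM in WT for 4 Schwann cell markers, 110.0 to 140.3 FPKM in HSA-NRTN and 85.1 to 101 FPKM in WT for 4 of smooth muscle and pericytes, and 34.0 to 60.9 FPKM in HSA-NRTN and 22.7 to 38.0 FPKM in WT for 4 of adipocytes, and no marker was at 0 in all libraries. Called higher under both scalings were 2 of 3 tested Schwann cell markers, 1 of 3 tested for smooth muscle and pericytes and 1 of 4 for adipocytes. The adipocyte sums overlapped between the groups, and 1 of the 4, the hormone gene Lep, went the other way: it averaged 1.43 ± 0.499 FPKM in HSA-NRTN and 3.90 ± 2.87 FPKM in WT, with every HSA-NRTN library below WT, and was called lower with the size factors only (-1.08; limma, adjusted p = 0.0296). Autophagy genes are known to be active in most cell types, and the part of cell composition in their changes was not tested.

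The labels do not say whether the libraries kept the strand, so reads from overlapping genes on opposite strands cannot be told apart. For Becn1 43.9% of exon bases overlap an opposite-strand gene (Cntd1), for Gabarapl1 28.3% (1700101I11Rik), for Atg4d 19.3% (Kri1), for Uvrag 17.6% (Gm45187) and for Sqstm1 17.3% (Mrnip). Kri1 averaged 3.81 ± 0.394 FPKM in HSA-NRTN and 2.25 ± 0.130 FPKM in WT and was called higher under both scalings (limma, adjusted p = 9.30e-04 and 0.00535), a level not small beside that of Atg4d. The other 4 partners were below 1 FPKM on average in both groups and their groups overlapped, the highest being Mrnip at 0.786 ± 0.0749 FPKM in HSA-NRTN and 0.892 ± 0.268 FPKM in WT. For Atg9a 31.8% of exon bases overlap a gene on the same strand (Gm29253).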

How the data were processed

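Total RNA of snap-frozen gastrocnemius was made into Illumina TruSeq libraries, per the labels' protocols. The submitters' processing notes name HISAT2, HTSeq, DESeq2, Cufflinks and Cuffdiff with GRCm38. Their versions were not given in the sources used here. The authors deposited 1 table with FPKM per library and, per the file headers, their mean signal of scaled reads, log2 fold changes with standard errors, a test score and p-values. The FPKM unit was read from the values: with the mean signal, 100% of 127467 values above 0 gave whole reads within 0.01 read. Library totals, exon lengths and the authors' size factors followed from the same relation.

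The main test was limma 3.58.1 (R 4.3.3) on log2(FPKM + 1), with trend = TRUE and no block, adjusted over 10755 genes. It was tested on simulated reads in which 200 genes were changed by known folds. No composition shift was put in, so that test does not bear on the choice of scaling. For the second scaling, the FPKM of each library was multiplied by its total divided by its recovered size factor. These multipliers were centred over the libraries, and the values were fitted in the same way. Alternatives were quantile normalization, a pseudocount of 0.1, no filter, a mean of at least 5 FPKM, a replicate block, limma-voom on recovered reads and leaving out each library. Ratios were tested with SciPy 1.17.1. Exon overlaps come from GENCODE M21 (GRCm38), in which all 36 members have the table's start and end. The members and lists were chosen with earlier results of these data known. Named in full are members called under both scalings and the ATG8 genes, and at most 3 genes per other list, those of smallest p among its calls; Mtor and the members given with all libraries beyond that rule were added after their values were seen.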

Additional observations from a re-analysis of the deposited data

How the results depend on the processing

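Scaling was the choice that moved most results. Log2 changes above 0 with FPKM turned below 0 with the size factors for 17 members, none of which is among those called under both scalings: Atg14 -0.19, Ambra1 -0.11, Atg2a -0.048, Atg2b -0.17, Wipi1 -0.00046, Wipi2 -0.17, Atg3 -0.17, Atg4b -0.10, Atg4c -0.20, Atg5 -0.031, Atg7 -0.0092, Atg16l1 -0.042, Map1lc3a -0.15, Map1lc3b -0.25, Nbr1 -0.091, Calcoco1 -0.27, Tax1bp1 -0.23. With quantile normalization they did so for 15: Pik3r4 -0.038, Atg14 -0.24, Ambra1 -0.075, Atg2a -0.022, Atg2b -0.22, Wipi2 -0.18, Atg3 -0.076, Atg4b -0.13, Atg4c -0.23, Atg7 -0.11, Atg16l1 -0.077, Map1lc3a -0.0064, Map1lc3b -0.083, Calcoco1 -0.13, Tax1bp1 -0.11. With the size factors, counts called higher and lower were 2 and 16 for the members, 1 and 8 for initiation, 1 and 4 for conjugation, 0 and 4 for cargo receptors and 2264 and 3218 for all tested genes, against 7 and 6, 3 and 3, 4 and 2, 0 and 1, and 4476 and 1255 with FPKM. Quantile normalization gave 3 and 16, 0 and 11, 3 and 4, 0 and 1, and 2377 and 2889. With a mean of at least 5 FPKM, 1 initiation gene was called higher, as Uvrag and Pik3r4 were not tested there, and 2023 of all genes. The pseudocount of 0.1 and limma-voom with library totals kept every member's direction. Libraries with the same replicate number shared only the number (correlations of their deviations 0.083, -0.17 and 0.19); the replicate block gave 8 members higher and 7 lower, among them 1 cargo receptor higher, and 2 and 16 with the size factors. Leaving out 1 library at a time, members called higher ran from 5 to 8 and lower from 5 to 7 with FPKM, and from 0 to 2 and 12 to 18 with the size factors; initiation genes higher ran from 2 to 4 (0 to 1 with the size factors), conjugation genes higher from 3 to 4 (0 to 1), cargo receptor genes higher from 0 to 1 and 1 lower in each fit (1 to 4). Small changes crossed 0 in these fits, with log2 changes of -0.013 to 0.066 for Atg14, -0.022 to 0.084 for Atg4c, -0.084 to 0.0048 for Becn1, -0.026 to 0.050 for Calcoco1, -0.042 to 0.16 for Map1lc3b, -0.10 to 0.035 for Optn, -0.13 to 0.017 for Pik3c3, -0.0011 to 0.093 for Tax1bp1, and with the size factors -0.11 to 0.019 for Atg2a, -0.066 to 0.014 for Atg5, -0.062 to 0.020 for Atg7, -0.032 to 0.049 for Gabarap, -0.0056 to 0.057 for Pik3r4, -0.065 to 0.034 for Wipi1. The cause of these changes was not tested. The alternatives that combine the size factors with the block, limma-voom or a left-out library were chosen after seeing the data.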

Other observations

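Several genes near the machinery were below the level set for testing and are given as values only. Atg16l2, a paralogue of Atg16l1, was at 0.876, 1.34 and 1.15 FPKM in the HSA-NRTN libraries, against 0.456, 0.655 and 0.650 FPKM in the WT libraries. Ncoa4, the receptor of ferritin, averaged 0.445 ± 0.0328 FPKM in HSA-NRTN and 0.318 ± 0.0260 FPKM in WT (SD, n = 3 each). Atg9b, Rubcnl and Tfec were at 0.179 ± 0.0242 FPKM in HSA-NRTN and 0.0867 ± 0.0554 FPKM in WT, 0.160 ± 0.0133 FPKM in HSA-NRTN and 0.0612 ± 0.0444 FPKM in WT and 0.0402 ± 0.00804 FPKM in HSA-NRTN and 0.0293 ± 0.0143 FPKM in WT. For all of these except Tfec every HSA-NRTN library was above every WT library in FPKM, as for 47.0% of all tested genes. With the size factors the groups overlapped for Atg9b too, which had 5 to 30 reads per library.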
